A study of Homo sapiens with 6 samples.

Results

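NFAT5, the 4 calcium-regulated NFAT genes (NFATC1, NFATC2, NFATC3 and NFATC4), the osmotic response genes SLC5A3, AKR1B1 and SGK1, and the calcineurin inhibitor gene RCAN1 were followed in K562 cells given calactin. Members were all probe sets whose only gene symbol in the platform annotation was 1 of these 9 genes. The rule found 29 probe sets of 8 genes, out of 54613 probe sets that were not array controls. No probe set carried the symbol of AKR1B1 in that annotation, so AKR1B1 was not analysed here, and no member symbol stood beside another gene's on a shared probe set.

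K562 is an established line from a human chronic myeloid leukaemia. Biotin-labelled cRNA from 3 cultures exposed to 0.15 mM calactin for 12 h and from 3 untreated cultures of the same 12 h was hybridised to 1-colour Affymetrix arrays, 1 array a culture. Calactin is a cardenolide, a plant steroid that inhibits the sodium pump, and the dose unit rests on the labels alone. The labels call the samples of a group biological replicates, and all of them come from this 1 line.

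NFAT proteins are transcription factors that share a DNA-binding domain related to that of NF-kB and recognise the bases GGAAA. NFATC1 to NFATC4 wait in the cytosol in a phosphorylated form until calcium activates the phosphatase calcineurin, which lets them enter the nucleus, and RCAN1 binds calcineurin and restrains it. NFAT5, also called TonEBP, is not controlled by calcineurin. It answers a rise in ionic strength, as in the salty medulla of the kidney, by raising genes that let a cell gather harmless osmolytes: SLC5A3 carries myo-inositol into the cell with sodium, and AKR1B1 makes sorbitol. SGK1 encodes a kinase that acts on sodium transport and whose transcript responds to cell volume and to steroid hormones.

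The start of SLC5A3 is shared with MRPS6, a gene for a mitochondrial ribosomal protein, in the RefSeq promoter table (GRCh38.p14), which held windows for 8 of the 9 members and none for NFAT5. The sequences below are the 250 bases before a start, 5′ to 3′ on the gene's strand, with each copy of GGAAA or its reverse complement TTTCC in capitals. They are shown because the table gives SLC5A3 and MRPS6, which both had a called rise, 1 start, and because NFATC1 and RCAN1, both lower on some of their probe sets, have several starts. AKR1B1, SGK1, NFATC2 and NFATC4 also have several starts, and their windows are not printed. The arrays do not show which start a transcript came from. The SLC5A3 and MRPS6 window lies at chr21:34073328-34073577 on the plus strand, and the NFATC1 windows at chr18:79395680-79395929 and chr18:79400049-79400298 on the plus strand. The RCAN1 window, the only one of 6 with any copy, lies at chr21:34526823-34527072 on the minus strand.
SLC5A3 and MRPS6: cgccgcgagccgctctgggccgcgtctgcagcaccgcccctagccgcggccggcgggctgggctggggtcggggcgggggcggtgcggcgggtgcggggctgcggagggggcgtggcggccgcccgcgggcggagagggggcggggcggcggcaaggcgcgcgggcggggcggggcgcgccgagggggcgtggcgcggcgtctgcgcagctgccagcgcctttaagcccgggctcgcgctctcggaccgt
NFATC1, upstream start: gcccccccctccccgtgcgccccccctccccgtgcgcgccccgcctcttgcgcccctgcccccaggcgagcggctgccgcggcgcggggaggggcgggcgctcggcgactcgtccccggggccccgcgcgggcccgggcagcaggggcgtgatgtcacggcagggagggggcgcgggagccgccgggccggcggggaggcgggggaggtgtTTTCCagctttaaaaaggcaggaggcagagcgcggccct
NFATC1, downstream start: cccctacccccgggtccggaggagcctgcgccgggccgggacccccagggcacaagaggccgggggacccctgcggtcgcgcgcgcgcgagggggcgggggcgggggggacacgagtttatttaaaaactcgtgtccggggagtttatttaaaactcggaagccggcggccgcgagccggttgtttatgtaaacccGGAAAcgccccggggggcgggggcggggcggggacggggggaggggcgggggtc
RCAN1: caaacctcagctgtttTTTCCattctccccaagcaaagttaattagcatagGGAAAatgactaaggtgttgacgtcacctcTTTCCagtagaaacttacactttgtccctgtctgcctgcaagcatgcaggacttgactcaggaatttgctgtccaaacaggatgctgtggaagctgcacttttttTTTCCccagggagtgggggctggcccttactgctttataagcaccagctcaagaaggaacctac

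The SLC5A3 and MRPS6 window had 0 copies of GGAAA on either strand. Each NFATC1 window had 1, and the RCAN1 window had 4, which started 234, 199, 169 and 64 bases before the start, while the other 5 RCAN1 windows had 0. Of all 35116 windows of this length in the table, 55.6% held at least 1 copy and 1.87% held at least 4. The RCAN1 window held the most copies of its gene's windows, so its count beside that share is a description and not a test. Of the 20 windows of the members, 9 held a copy and 0 held the longer osmotic element TonE, which 4.16% of all windows hold. A match of letters is a description and not a bound site, and these windows cover only the bases next to each start.

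Values below are linear intensities as deposited, fold changes and log2 changes are on the log2(intensity + 16) scale, positive when higher with calactin, and a probe set was called at an adjusted p below 0.05 in limma with Benjamini-Hochberg adjustment over all 54613 probe sets. The number of arrays limits the precision. Median intensities of the arrays lay between 31.1 and 32.0 (calactin) and between 33.0 and 34.3 (untreated), and log2 signals correlated at 0.985 to 0.988 within groups and 0.971 to 0.978 between them. The erythroid genes of K562 were bright, with HBE1 at a mean of 13173 with calactin and 13552 without, and HBZ at 11877 and 11969. Of 6 erythroid markers measured, TAL1 rose by 0.92 (limma adjusted p = 3.87e-04; -0.03 on a probe set of unshared sequence), and TFRC and GATA1 fell by 0.55 and 0.86 (adjusted p = 4.18e-04 and 0.00752). TFRC was at 0.05 and GATA1 at -0.27 and not called under poly-A spike scaling with the replicate number as a block. The 6 summed to 36361 to 44916 with calactin and 39938 to 45604 without. Of 7 T cell markers 3 lay above the median signal of all probe sets, and CD3D alone was bright, at 1703 and 2330. It fell by 0.45 (adjusted p = 0.00554), and the 7 summed to 1806 to 2006 with calactin and 2298 to 2710 without, mostly from CD3D. The list median was 0.12, and CD3E (0.42) and CD5 (0.56), not called, were higher in every calactin array. The part of these markers in the results below was not tested. B cell markers summed to 108 to 127 and 109 to 129, and monocyte markers to 729 to 863 and 911 to 965, mostly from LYZ.

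Among the members, NFAT5 and SLC5A3 rose while NFATC1, NFATC3 and RCAN1 fell, in each case on some of the gene's probe sets. Of 29 probe sets, 2 were called higher, 6 lower and 21 not called, which is 27.6% called against 13.9% of all probe sets tested (3.68% higher and 10.3% lower). All 8 lay above the median signal, where 26.3% of probe sets were called (6.99% higher and 19.3% lower), against 38.1% of the 21 members there. The groups did not overlap for 11 of the 29, or 37.9%, against 28.4% of all (9.36% higher, 19% lower). All 11 were among the 21 members above the median signal, or 52.4% of these against 44.7% of all probe sets above it (14.2% higher, 30.5% lower). The median change was 0.01 over the members and -0.05 over all probe sets. Because the members were chosen with earlier results of these data known, these shares are a description and not a test. Under quantile normalization 2 were higher and 3 lower, under hybridisation spike scaling 2 and 2, and under poly-A spike scaling, run with the replicate number as a block, 10 and 1. Of all 54613 probe sets, these scalings called 3382 higher and 4081 lower, 1238 and 2384, and 13042 and 1560, in that order. Poly-A spike scaling moved the median of all probe sets to 0.31, and that at 1 probe set a gene to 0.36. Bright probe sets moved further than dim ones. NFATC3 225141_at went from -0.42 to 0.17 and SLC5A3 212944_at from 0.16 to 0.74, while dim NFATC4 213345_at went from 0.03 to 0.39. A bright probe set above 0.31 under that scaling is thus not by itself a rise against the other probe sets of its brightness. Replicates 1 and 2 alone, with 4 arrays, left 1 call among the members, that of SLC5A3, and 1619 among all probe sets.

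**Figure D1:**
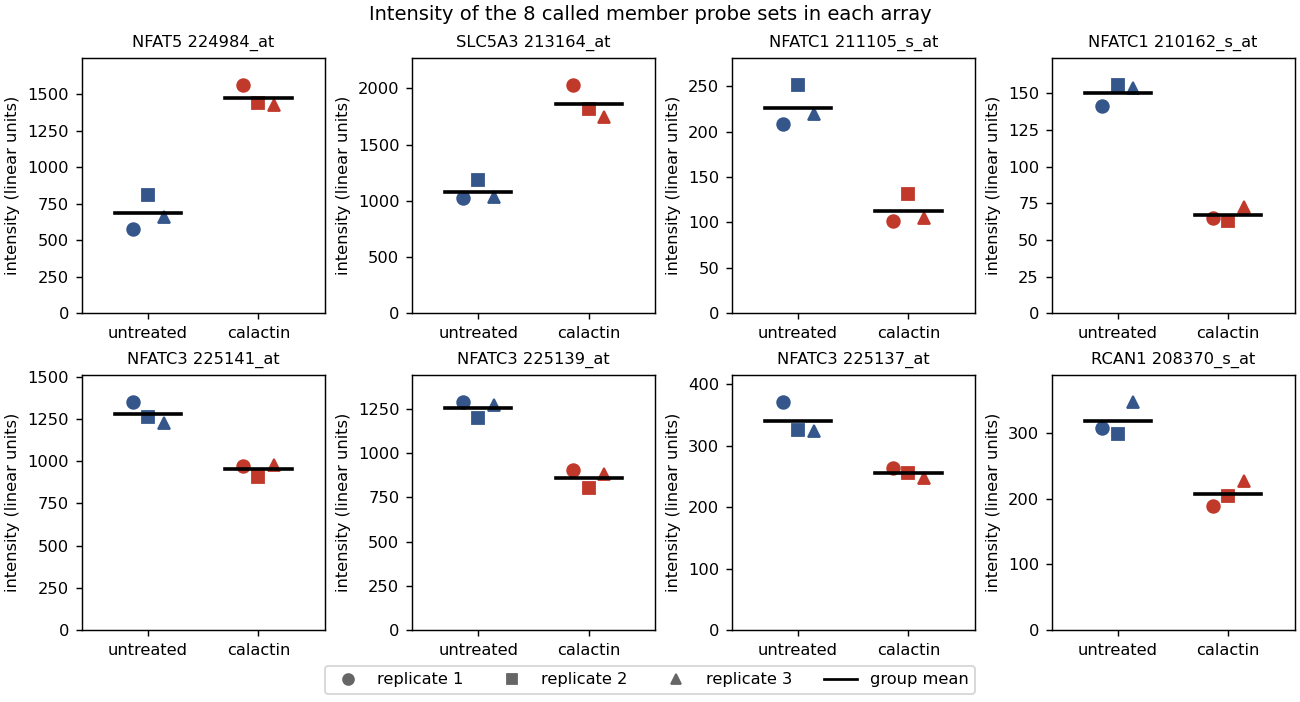
Linear intensity (vertical axes, from 0) of the 8 called probe sets in each of 3 untreated (blue) and 3 calactin (red) arrays, with the replicate number as the symbol and the group mean as a line. In every panel the groups are apart: NFAT5 and SLC5A3 lie higher with calactin, the other 6 lower.

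NFAT5 had the largest rise of any member. Its brightest probe set, 224984_at, read 1558, 1436 and 1422 with calactin (replicates 1, 2 and 3) and 580.2, 811 and 659.5 without. Every calactin array was above every untreated one, and untreated replicate 2 was the closest to the calactin arrays. The means were 1472 ± 75.0 and 684 ± 117 (SD, n = 3 each), a 2.14-fold rise or 1.10 ± 0.12 (log2, SE; limma adjusted p = 7.15e-04). It was called in 16 of 17 alternatives, within a range of 0.99 to 1.69, and the call was lost with replicates 1 and 2 alone (adjusted p = 0.0521). Between arrays of the same replicate number the differences were 1.40, 0.81 and 1.09.

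The other NFAT5 probe sets were much dimmer. Probe set 208003_s_at read 46.1, 99.7 and 61.9 with calactin and 34.2, 48.2 and 46.1 without, so the groups overlapped, with a log2 change of 0.49 ± 0.25 (adjusted p = 0.279). Probe set 215092_s_at, below the median signal of 32.5, read 20.5, 12.6 and 19.7 against 10.5, 2.31 and 16.3 (0.41 ± 0.23, adjusted p = 0.340). All 3 had a positive change, but 1 was called, and 208003_s_at was called only under poly-A spike scaling with the block (0.95, adjusted p = 0.0101). With the mean of the 3 in place of the brightest, NFAT5 stood at 0.67 (limma adjusted p = 0.00412 over 19775 genes).

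SLC5A3, the inositol carrier, was called on 1 of 4 probe sets. Probe set 213164_at read 2025, 1812 and 1740.3 with calactin and 1022, 1182 and 1036 without, with no overlap. It rose 1.71-fold, from 1080.0 ± 88.7 to 1859 ± 148 (SD, n = 3 each), or by 0.77 ± 0.09 (adjusted p = 9.75e-04). This was the member call that held in all 17 alternatives, within 0.71 to 1.37, with a highest adjusted p of 0.0457.

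The other SLC5A3 probe sets moved less and were not called. Probe set 212944_at, also bright, read 869, 781 and 853 with calactin and 721, 722 and 799.9 without. Calactin replicate 2 lay below untreated replicate 3, and the change was 0.16 ± 0.09 (adjusted p = 0.344). The dimmer 213167_s_at and 1553313_s_at stood at 0.25 ± 0.18 and 0.24 ± 0.19 (adjusted p = 0.487 and 0.530). With the mean of all its probe sets SLC5A3 stood at 0.35 (limma adjusted p = 0.0375). The ratio of 213164_at to 212944_at within an array, which a scaling of whole arrays alters little by construction, was 1.21, 1.20 and 1.01 on the log2 scale with calactin and 0.49, 0.70 and 0.37 without. It was 0.62 higher with calactin (two-sided exact permutation p = 0.1, the smallest that 3 against 3 arrays allow). This pair and the other ratios below were chosen after their values had been seen, so no conclusion is drawn from a p-value of a ratio. All 3 uncalled SLC5A3 probe sets were called higher under poly-A spike scaling with the block, at 0.72 to 0.75.

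MRPS6, which shares its start with SLC5A3, was measured by 1 probe set, 224919_at. It read 2588, 2694 and 2652 with calactin and 2240, 2177 and 2342 without. The groups did not overlap, and MRPS6 rose by 0.23 ± 0.07 in the fit with 1 probe set a gene (limma adjusted p = 0.0357). The call held in 11 of 19 alternatives, and ended when any 1 array other than untreated replicate 3 was left out (adjusted p = 0.0731 to 0.118) and under hybridisation spike scaling (0.34, adjusted p = 0.380).

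SGK1 had 1 probe set, 201739_at, which read 332, 458 and 351 with calactin and 400, 679 and 458 without. The groups overlapped, because calactin replicate 2 lay above untreated replicate 1. The means were 380.3 ± 68.1 and 512 ± 147 (SD, n = 3 each), and the change of -0.39 ± 0.20 was not called (limma adjusted p = 0.286). Within each replicate number calactin was lower, by -0.26, -0.55 and -0.37 on the log2 scale. With the replicate number as a block the same -0.39 was called (adjusted p = 0.0177), while poly-A spike scaling with that block gave 0.19 (adjusted p = 0.197). Without untreated replicate 2, the brightest array, the value was -0.18.

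**Figure D2:**
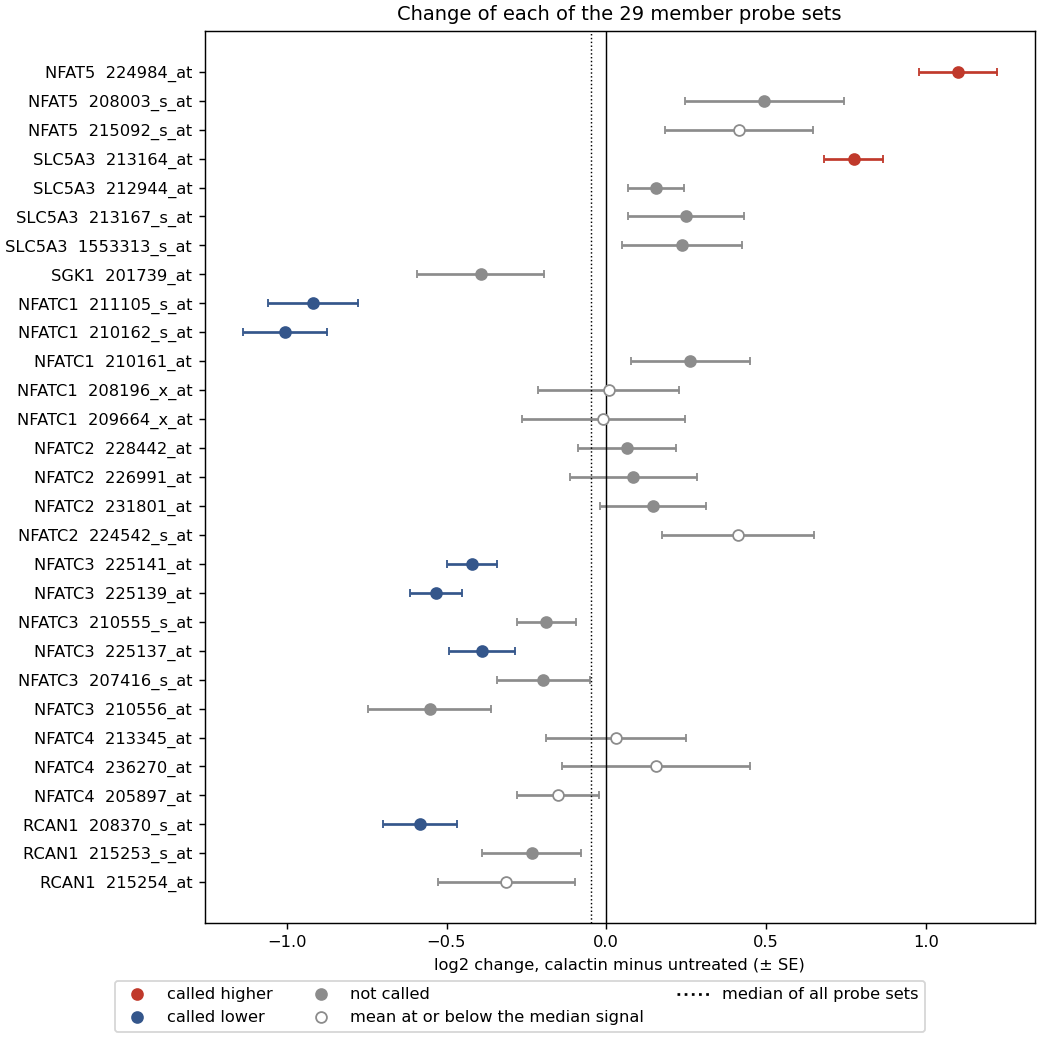
Log2 change between calactin and untreated arrays (horizontal axis, points with SE) for each of the 29 member probe sets, grouped by gene and ordered by brightness. Called rises are red, called falls blue and uncalled values grey, open points are dim, and the dotted line is the median of all probe sets. NFAT5 and SLC5A3 lie right of 0 on all their probe sets and NFATC3 and RCAN1 left, while NFATC1 is split.

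NFATC1, a calcium-regulated factor known from T cells, bone-resorbing osteoclasts and heart valves, had the largest falls. Probe set 210162_s_at read 64.8, 63.2 and 72.2 with calactin and 141, 155 and 154 without. The groups were far apart, and the fall was 2.01-fold, from 150.2 ± 7.59 to 66.7 ± 4.79 (SD, n = 3 each; -1.01 ± 0.13, adjusted p = 0.00154). Probe set 211105_s_at read 102, 132 and 105 against 209, 251 and 219.8, and fell 1.89-fold (-0.92 ± 0.14, adjusted p = 0.00306). The 2 probe sets were called in 16 and 15 of 17 alternatives. Under poly-A spike scaling with the block they stood at -0.50 (adjusted p = 0.0286) and -0.38 (adjusted p = 0.0658), below the median of 0.31 there.

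The remaining 3 NFATC1 probe sets showed no such fall. Probe set 210161_at read 33.9, 52.8 and 45.9 with calactin and 36.2, 32.3 and 32.8 without (0.26 ± 0.19, adjusted p = 0.474), so the groups overlapped near the median signal of the arrays, and was called higher only under poly-A spike scaling with the block (0.71, adjusted p = 0.0496). The 208196_x_at and 209664_x_at probe sets, both below that median, were at 0.01 ± 0.22 and -0.01 ± 0.25. The log2 ratio of 210162_s_at to 210161_at was 0.69, 0.20 and 0.51 with calactin and 1.59, 1.83 and 1.80 without, with no overlap. It fell by 1.27 (two-sided exact permutation p = 0.1, the smallest possible), by 1.52 with a pseudocount of 1 and by 0.85 with 64. Which NFATC1 transcripts each probe set reads is not given in the sources used here, so the gene's fall rests on 2 of its 5 probe sets. The mean of the 5 gave -0.33 (adjusted p = 0.130).

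NFATC3, another calcium-regulated factor, was the NFAT gene with the most bright probe sets, and 3 of its 6 were called lower. Probe set 225139_at read 903, 802 and 882 with calactin and 1289, 1198 and 1274 without, a 1.45-fold fall with no overlap (-0.53 ± 0.08, adjusted p = 0.00311). Probe set 225141_at read 970.5, 905 and 979.7 against 1349, 1263 and 1223, and fell 1.34-fold (-0.42 ± 0.08, adjusted p = 0.00817), a call that quantile normalization ended (-0.28, adjusted p = 0.0745). Probe set 225137_at read 263, 256 and 248 against 371, 326 and 324 (-0.39 ± 0.10, adjusted p = 0.0378), but this call was lost without any 1 of the 6 arrays and held in 4 of 17 alternatives.

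The other NFATC3 probe sets had negative values without a call. Probe set 210555_s_at read 1006, 867 and 998 with calactin and 1139, 1129 and 1006 without, so the groups all but touched (-0.19 ± 0.09, adjusted p = 0.276). Probe set 207416_s_at stood at -0.20 ± 0.15 and 210556_at, close to the median signal, at -0.55 ± 0.19 (adjusted p = 0.500 and 0.108). The first of these was at 0.01 after quantile normalization and 0.36 under poly-A spike scaling with the block, and the second 22.4, 26.4 and 20.7 against 33.2, 52.7 and 39.6 and was called when only probe sets above the median signal were tested (adjusted p = 0.0455). In all, 5 of 6 probe sets did not overlap between the groups, all lower, where 19% of all probe sets and 30.5% of the bright ones were lower without overlap. The 6 read 1 gene in the same arrays, so they are not independent and this is a description. The sizes are small. Quantile normalization, median centring and hybridisation spike scaling kept 225141_at, 225139_at and 225137_at negative, at -0.45 to -0.19. Poly-A spike scaling with the block turned their sign, to 0.17, 0.06 and 0.18, none called and all below the median of all probe sets. It called 210555_s_at higher at 0.40. Hybridisation spike scaling ended all 3 calls (adjusted p = 0.485, 0.271 and 0.578).

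NFAT5 and NFATC3 were also set against each other within each array, a ratio that scalings of a whole array leave nearly the same by construction. The pair joins a probe set that rose and one that fell, both without overlap, so that choice fixed in advance that the ratio separates the groups. The log2 ratio of NFAT5 224984_at to NFATC3 225139_at within an array was 0.78, 0.83 and 0.68 with calactin and -1.13, -0.55 and -0.93 without. It was 1.63 higher with calactin, and between 1.50 and 1.79 under quantile normalization, the pseudocounts and the left-out arrays tried.

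**Figure D3:**
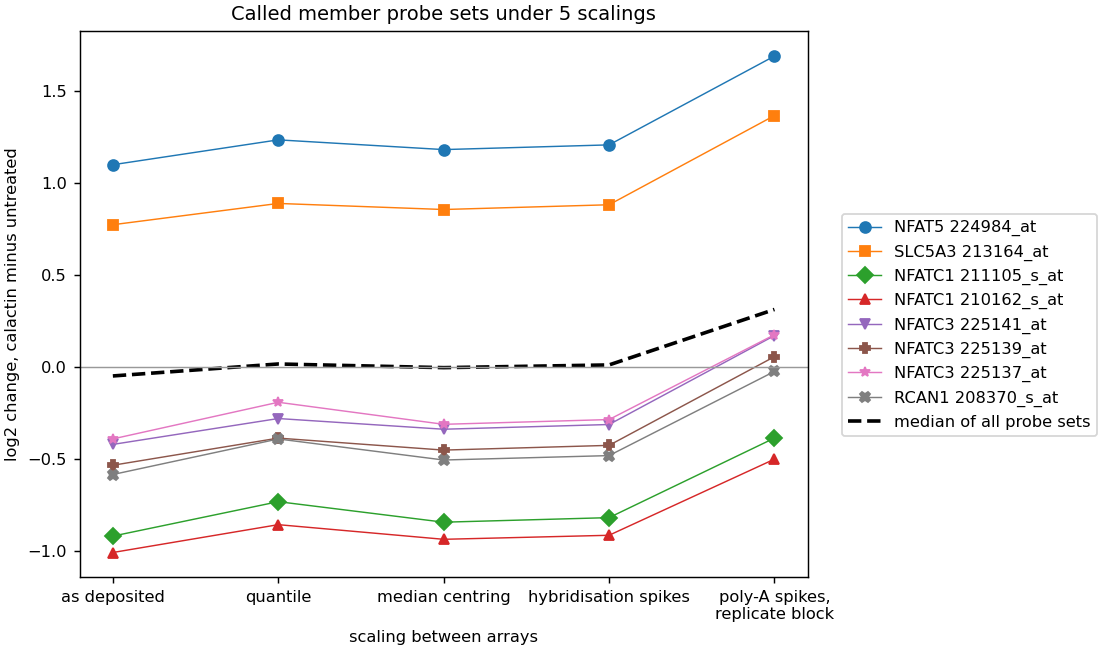
Log2 change between calactin and untreated arrays (vertical axis) of the 8 called probe sets under 5 scalings between arrays (horizontal axis), with the median of all probe sets as a dashed line. Lines join the values of 1 probe set. NFAT5 and SLC5A3 stay above the dashed line and NFATC1, NFATC3 and RCAN1 below it under each scaling, while the 3 NFATC3 values pass 0 under poly-A spike scaling.

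NFATC2 and NFATC4 gave no call. The brightest NFATC2 probe set, 228442_at, read 246, 324 and 246 with calactin and 219, 297 and 262 without, with wide overlap (0.07 ± 0.15, adjusted p = 0.869). The other 3 NFATC2 probe sets ranged from 0.08 to 0.41, and the groups overlapped in all of them. Under poly-A spike scaling with the block 228442_at and 226991_at were called higher, at 0.63 and 0.59. The 3 NFATC4 probe sets all lay below the median signal, with intensities of at most 39.3 and log2 changes of -0.15 to 0.16. None was called.

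RCAN1, whose protein holds calcineurin in check, fell on its brightest probe set. Probe set 208370_s_at read 189, 205 and 227 with calactin and 308, 299 and 347.5 without, and the groups did not overlap. The fall was 1.50-fold, from 318 ± 26.0 to 207 ± 19.1 (SD, n = 3 each; -0.58 ± 0.12, adjusted p = 0.0109). Probe set 215253_s_at read 100.2, 74.0 and 104 against 108, 109 and 116, lower without overlap but not called (-0.23 ± 0.16, adjusted p = 0.441), and at 0.29 under poly-A spike scaling with the block. The dim 215254_at stood at -0.31 ± 0.21 and overlapped. The call of 208370_s_at held in 12 of 17 alternatives. It was lost without untreated replicate 3 (adjusted p = 0.0553), under quantile normalization (adjusted p = 0.0606) and under hybridisation spike scaling (adjusted p = 0.198), and poly-A spike scaling with the block left -0.02.

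The genes whose arrays followed NFAT5 most closely were TRPS1, DPP8, GOLT1B, CPEB4 and TMEM87A. Their log2 signals correlated with those of 224984_at at 0.999, 0.998, 0.997, 0.997 and 0.997 over 6 arrays. The points share 1 group difference and the same arrays, and 707 of 22733 probe sets compared passed 0.95, so this is a description of a common pattern. CPEB4, which binds messenger RNAs and acts on their translation, rose 3.81-fold, and TRPS1, a GATA-type repressor, 2.54-fold.

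The genes around these members were read at 1 probe set a gene, the brightest, where 21.4% of 19775 genes were called (4.93% higher and 16.5% lower) and the median of all genes was -0.06. At that level 5 of the 8 measured members were called, NFAT5 and SLC5A3 higher and NFATC1, NFATC3 and RCAN1 lower. Other osmolyte carriers and osmotic response genes went both ways: of 9 measured, 1 rose, 2 fell and 6 were not called (median -0.05). SLC38A2, a carrier of small neutral amino acids, read 9144, 8305 and 8269 with calactin and 5738, 5435 and 6210.4 without and rose by 0.56 ± 0.07 (adjusted p = 6.66e-04). SLC6A6, the taurine carrier, fell by 0.27 ± 0.08 (adjusted p = 0.0418), but was at 0.32 under poly-A spike scaling with the block and at 0.02 with the mean of its probe sets, and its call ended without any 1 array other than untreated replicate 2 (adjusted p = 0.0730 to 0.137). HSPA4L, a chaperone raised by salt, fell by 0.61 ± 0.14 (adjusted p = 0.0130), a call lost without replicate 1 of calactin or untreated replicate 3 (adjusted p = 0.0527 and 0.0553) and at -0.04 under poly-A spike scaling with the block. SLC6A12, the betaine carrier and a known NFAT5 target, was near the median signal and at -0.14 ± 0.21.

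The list of inositol and polyol pathway neighbours was split, with 2 of 7 higher, 2 lower and 3 not called (median 0.11). One of its rises was that of MRPS6, which handles no inositol and is listed for its place next to SLC5A3. The other was that of SLC2A13, a proton-coupled inositol carrier, which read 273, 258 and 328 against 129, 116 and 171 (0.97 ± 0.17, adjusted p = 0.00306) and was not called with the mean of its probe sets (0.35). The falls were those of the inositol monophosphatases IMPA2 (-0.86 ± 0.15, adjusted p = 0.00347) and IMPA1 (-0.57 ± 0.12, adjusted p = 0.00860), which release free inositol. Under poly-A spike scaling with the block IMPA2 stood at -0.32 and IMPA1 at 0.02, and neither was called. ISYNA1, which makes inositol from glucose, was not called (-0.19 ± 0.14). Of 7 genes for regulators of NFAT5, 2 fell, PARP1 (-0.50 ± 0.09) and FYN (-0.55 ± 0.16), and 5 were not called (median -0.08). PARP1 was at 0.10 under poly-A spike scaling with the block, and FYN at 0.18 on a probe set of unshared sequence. The FYN call also ended without any 1 array other than untreated replicate 1 (adjusted p = 0.0841 to 0.113).

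Calcineurin subunit genes moved in opposite directions. PPP3CC, a catalytic subunit, read 454, 477 and 456 with calactin and 266, 303 and 303 without and rose by 0.65 ± 0.10 (adjusted p = 0.00231). PPP3CB, another catalytic subunit, fell by 0.43 ± 0.09 (adjusted p = 0.0110), though it was at 0.15 under poly-A spike scaling with the block. The other 7 genes of that list were not called, RCAN2 and RCAN3 among them, and the list's median was -0.16.

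Kinases listed for the export of NFATC proteins from the nucleus gave 2 rises and 1 fall among 8 (median 0.11). GSK3B read 871, 947 and 851 with calactin and 486, 507 and 474 without, a rise of 0.84 ± 0.09 (adjusted p = 3.12e-04). With the mean of its probe sets the GSK3B rise was 0.34 (limma adjusted p = 0.0252). DYRK1A, a priming kinase, rose by 0.55 ± 0.11 (adjusted p = 0.00591), and DYRK2 fell by 0.69 ± 0.15 (adjusted p = 0.00969). The DYRK2 value was -0.18 and not called under poly-A spike scaling with the block. It was -0.93 with the mean of its probe sets and -1.81 on a probe set of unshared sequence, both called. The DYRK1A rise was not called with the mean of its probe sets (0.20) or with probe sets of unshared sequence preferred.

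Among 8 genes of store-operated calcium entry, the route that feeds calcineurin in blood cells, 1 rose, 3 fell and 4 were not called (median -0.19). ORAI3, a channel subunit, read 189, 165 and 197 with calactin and 637, 543 and 617 without and fell 3.08-fold (-1.62 ± 0.12, adjusted p = 8.46e-05), at -1.06 under poly-A spike scaling with the block. STIM2, a sensor of calcium in the endoplasmic reticulum, rose 2.14-fold (1.10 ± 0.15, adjusted p = 9.19e-04). The inositol trisphosphate receptors ITPR3 and ITPR1 fell by 1.04 ± 0.14 and 0.59 ± 0.09 (adjusted p = 8.81e-04 and 0.00146), and neither was called with the mean of its probe sets (-0.37 and -0.24). On a probe set of unshared sequence ITPR3 stood at -0.04 (adjusted p = 0.922). ORAI1, ORAI2 and STIM1 stood at 0.01, -0.08 and 0.06 and were not called.

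Of 10 calcineurin-NFAT target genes of T cells, 0 were called in limma (2, EGR3 and NR4A1, at an unadjusted p under 0.05), and 3 lay above the median signal. EGR3 read 37.3, 28.5 and 26.0 with calactin and 41.8, 71.4 and 50.1 without, and NR4A1 28.0, 42.9 and 53.5 against 115, 70.4 and 62.8. Both were lower in every calactin array, at -0.58 ± 0.20 and -0.77 ± 0.25, with adjusted p of 0.0763 and 0.0591. Around SGK1, 2 of 8 genes rose and 0 fell (median 0.08). RICTOR, a part of the complex that activates SGK kinases, rose by 0.70 ± 0.08 (adjusted p = 5.15e-04), and FOXO3, a substrate, by 0.62 ± 0.15 (adjusted p = 0.0158). Leaving out replicate 2 or 3 of calactin, or untreated replicate 3, ended the FOXO3 call.

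**Figure D4:**
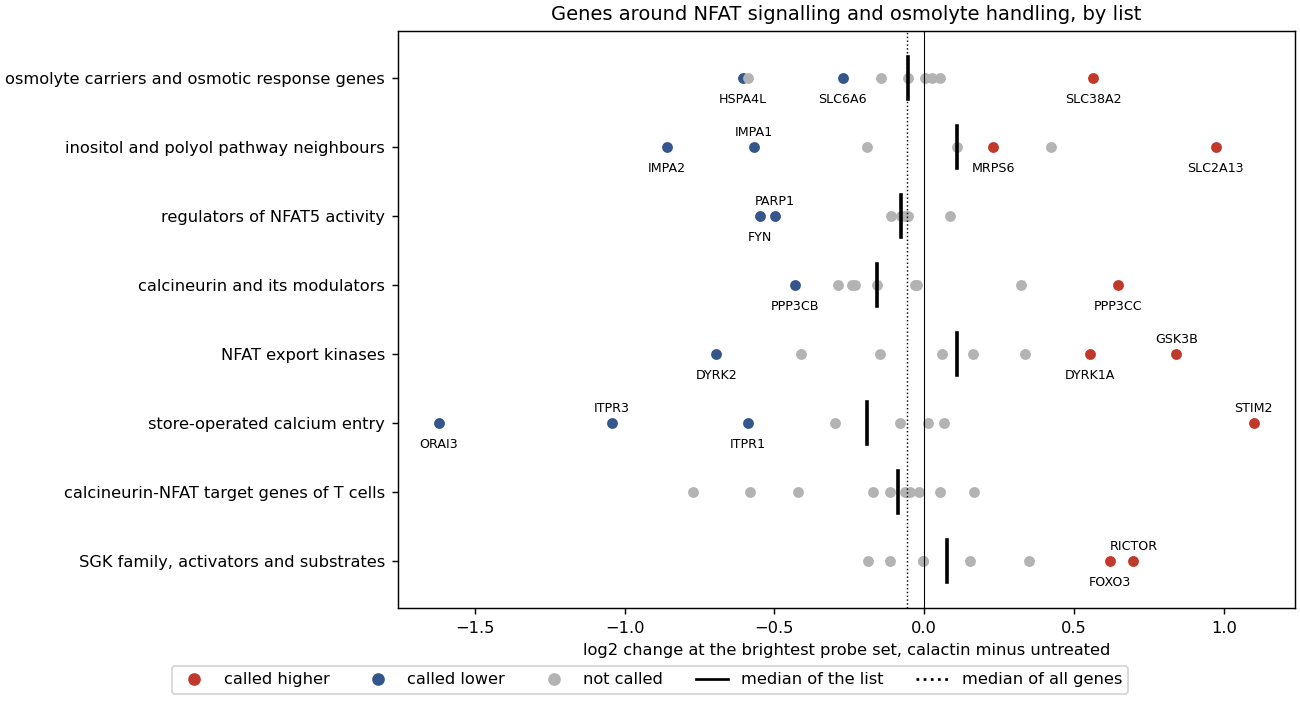
Log2 change at the brightest probe set of each gene (horizontal axis) for 8 gene lists (rows), with called rises in red, called falls in blue and uncalled genes in grey. Black bars are list medians and the dotted line is the median of all genes, -0.06. Called genes lie on both sides of 0 in 5 lists, and the target genes of T cells have no called gene.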

How the data were processed

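The authors deposited linear intensities, 1 per probe set and array; how probe sets were summarised, background-corrected or scaled is not given in the sources used here. Per the labels' protocols, biotinylated cRNA came from 8 ug of total RNA. Of 54675 probe sets, 62 controls were left out, 41091 carried 1 symbol, 1801 several and 11721 none; 41037 were matched to RefSeq by gene identifier and 0 symbols changed. No further normalization was applied to log2(intensity + 16). limma 3.58.1 (lmFit, eBayes with a trend) in R 4.3.3 compared the groups, two-sided, at an adjusted p of 0.05. The fit was tested on simulated data with 200 changed probe sets, all above the median signal. It recovered 48.5% of log2 changes of 1 and 91.8% of changes of 2, and 2.8% of its calls were false. Plots used matplotlib 3.10.9. Named were all member probe sets and, of each pathway or marker list, up to 4 called genes with the smallest p; others were chosen after their values were seen. Members and lists were chosen with earlier results of these data known.

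Replicate numbers come from the sample titles. Deviations from group means correlated at 0.415, 0.325 and 0.240 between same-numbered arrays over 27305 probe sets above the median signal. Between other arrays they correlated at -0.01 at most, in part because the deviations within a group sum to 0. The titles state no pairing, so the pairing by number is read from these correlations alone. The reported fit has no block, so its p-values leave out that pairing. With the block, an alternative, 9908 probe sets were called against 7611, and SGK1 was added to the members' calls. Alternatives were quantile normalization, median centring, scaling of the linear values to 9 hybridisation or 12 poly-A spike probe sets, pseudocounts of 1 and 64, bright probe sets alone, eBayes without a trend or robust, the replicate block, arrays left out, and other ways to pick a gene's probe set. Poly-A spikes had a geometric mean of 78.7 and 109.5 in both replicates 3 against 893 to 1928 elsewhere, so that scaling was run with the block.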

Additional observations from a re-analysis of the deposited data

How the results depend on the processing

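The rises of NFAT5 224984_at and SLC5A3 213164_at kept their direction in all 17 alternatives. Counts of calls moved by over 1.5 times as follows. Hybridisation spike scaling gave 4 member probe sets, 3 member genes, 3622 of all probe sets and 2131 of all genes, against 8, 5, 7611 and 4239. Replicates 1 and 2 alone gave 1, 2, 1619 and 1735, with fewer arrays. Poly-A spike scaling with the replicate block gave 3 member genes, 14602 probe sets and 7811 genes. Quantile normalization gave 5 member probe sets and 3 member genes, and probe sets of unshared sequence first gave 3 member genes. Calls were lower in 73.6% of all called probe sets as deposited, 54.7% after quantile normalization, 63.9% after median centring, 65.8% with hybridisation spikes and 10.7% with poly-A spikes. Leaving out 1 array gave 6 to 7 member probe sets, 5 member genes, 4947 to 6781 probe sets (the lowest without untreated replicate 3) and 3133 to 4045 genes.

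With the replicate block 9 member probe sets were called, 9908 probe sets and 5394 genes; SGK1 was added to the members' calls, and the block changed no other call of a member. Poly-A spike scaling turned the sign of NFATC3 225141_at (0.17), 225139_at (0.0575), 225137_at (0.18) and 210555_s_at (0.40), and of SLC6A6 (0.32), IMPA1 (0.0245), PARP1 (0.10), PPP3CB (0.15), TFRC (0.0455) and CD3D (0.15). Probe sets of unshared sequence gave NFATC1 0.26, FYN 0.18 and TAL1 -0.0296, and the mean of its probe sets gave SLC6A6 0.016. Hybridisation spike scaling also ended the calls of SLC38A2 (0.67) and MRPS6 (0.34), whose values grew, and of HSPA4L, SLC6A6, IMPA1, PARP1, FYN, PPP3CB, DYRK2, ITPR1, TFRC and CD3D (-0.59 to -0.16). The cause of these changes was not tested. Of the values of single member probe sets under alternatives, 446 kept their side of the threshold, 26 lost and 9 gained a call, and 4 turned where a value was called on either side. Another 21 turned sign without any call, 4 of them under poly-A spike scaling. The 8 members at or below the median signal gave 0 calls in limma as deposited (0 at an unadjusted p under 0.05), and the power there was not tested.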
